A study of Mus musculus with 2 samples.

Results

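Mesothelial cells of the mouse lung were selected on measured counts in 2 droplet RNA libraries. A droplet was chosen by its markers, when it held at least 2 unique molecular identifiers (UMIs, each the trace of 1 captured RNA molecule) of Msln, Upk3b, Wt1 and Lrrn4 in sum and no UMI of Ptprc, Cdh5 or Epcam, the general markers of immune, endothelial and epithelial cells. Of the 15695 droplets kept after filtering, 61 met this rule, 24 of 7988 in the control library and 37 of 7707 in the treated one. The lungs were those of BALB/c females aged 9 to 10 weeks, and each library was made from whole lung tissue. Mice of the first group received control media (CM) by intravenous injection over 3 weeks, and mice of the second received tumor conditioned media (TCM), which the study prepared by keeping 4T1 mouse breast tumors in serum-free medium. TCM as a model therefore brings the medium of a cultured tumor rather than a tumor growing in the animal, and a CD90.1 sequence that marks injected cancer cells elsewhere in the study had 0 UMIs in the mesothelial droplets of either library. How many mice were pooled was not given in the sources used here. Each group had 1 library, so differences have no replicate check, no p-value was computed, and all intervals are 95% intervals that cover counting error only.

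The mesothelium is a single layer of flat cells that covers the surface of the lung as the visceral pleura. It secretes hyaluronan and surface-active lubricants that let the lung slide against the chest wall, holds a tight barrier to the pleural space, and carries keratins of an epithelium together with vimentin of a mesenchymal cell. Mesothelial cells also make complement proteins and cytokines and can take on fibroblast features after injury.

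The 61 droplets were not of 1 kind. Their depth ran from 675 to 25743 UMIs in CM, with a median of 3057.5, and from 505 to 19539 in TCM, with a median of 702. All kept droplets had medians of 2085 UMIs in CM and 2346 in TCM, so the TCM members were shallower than their library and the CM members deeper. The markers of the rule, which chose the droplets, summed to between 2 and 176 UMIs per droplet in CM (median 16.5) and between 2 and 170 in TCM (median 4). Just inside the threshold, 3 CM and 12 TCM droplets had exactly 2 of these UMIs. Just outside it, 11 CM and 21 TCM droplets had 1 such UMI and none of the excluding genes, with median depths of 1107 and 588 UMIs.

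The label was checked with 12 mesothelial markers that the rule did not use (Krt19, Krt8, Krt18, Krt7, Nkain4, Rspo1, Gpm6a, Aldh1a2, Upk1b, Bnc1, Muc16 and Calb2). At least 2 of them were detected in 21 CM and 29 TCM droplets. Droplets of at least 2000 UMIs with at least 5 of the 12 numbered 11 in CM and 13 in TCM and are called core members below, a set defined after the values had been seen. They detected 6 to 11 of the 12 markers, with a median of 10 in each library, and held 12 to 176 UMIs of the rule's genes. The core was chosen in part on these markers, so its high detection follows from its definition. Over all members, which the 12 markers did not choose, their summed level was 717 UMIs per 100000 UMIs (CP100k) in CM and 697 in TCM. It was 815 CP100k in the CM core and 759 in the TCM core, against 69.5 and 56.8 CP100k in all other kept droplets. Depth in the core was alike, with medians of 10071 UMIs in CM and 8780 in TCM, and its 124195 CM and 124537 TCM UMIs made up most of the members' totals of 151937 and 144132.

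The other deep members had fewer mesothelial markers. A CM droplet of 4126 UMIs had 2 Msln UMIs and 3 of the 12 other markers, beside 344 UMIs of alveolar type II markers and 86 of alveolar type I markers. A CM droplet of 12127 UMIs had 4 Wt1 UMIs, no Msln or Upk3b, 4 of the 12 other markers and 465 UMIs of Cxcl13, a B cell attracting chemokine. A TCM droplet of 4941 UMIs had 2 Wt1 UMIs, none of the 12 other markers and 161 UMIs of fibroblast markers. The remaining 34 members, 11 in CM and 23 in TCM, had fewer than 2000 UMIs. The plot of rule markers against depth separates these sets.

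**Figure D1:**
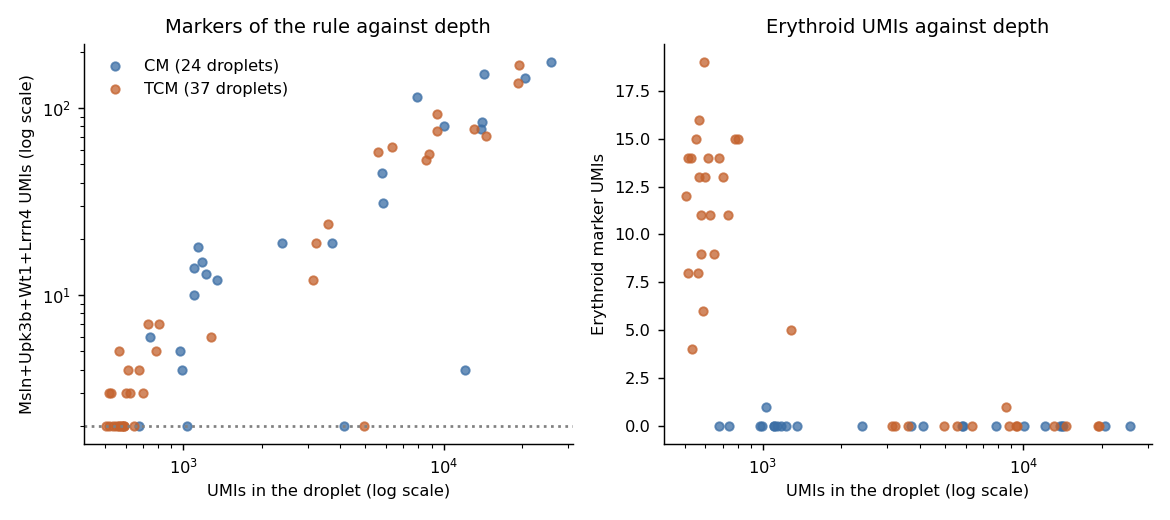
Left, UMIs of Msln, Upk3b, Wt1 and Lrrn4 in sum against total UMIs for each of the 24 CM (blue) and 37 TCM (orange) mesothelial droplets, both on log scales, with the threshold of 2 as a dotted line. Right, UMIs of 5 erythroid markers against total UMIs, where the TCM droplets under 1000 UMIs hold 4 to 19 and the deep droplets hold 0 or 1.

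The excluding genes took away droplets of a different sort in each library. At least 2 rule marker UMIs were present in 48 CM and 49 TCM droplets, and 24 of the CM and 12 of the TCM droplets were lost to Ptprc, Cdh5 or Epcam. In CM, 21 of the 24 held Cdh5, vascular endothelial cadherin, whereas in TCM 7 of the 12 held Epcam and 2 held Cdh5. A lone excluding UMI removed 17 of the CM and 8 of the TCM droplets. Among the lost droplets, 6 in CM and 4 in TCM had the depth and marker count of the core. Under 2000 UMIs the exclusion removed 16 CM and 4 TCM droplets, so that 27 droplets of each library had the marker UMIs there before it and 11 CM and 23 TCM droplets after it.

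The first comparison was of the share of mesothelial droplets in each lung. Members were 0.300% of the kept CM droplets (exact binomial interval 0.193 to 0.447%) and 0.480% of the TCM droplets (0.338 to 0.661%). The TCM share was 1.60-fold the CM share with an interval of 0.931 to 2.79, which includes equal shares. As a share of droplets without a Ptprc UMI, members were 0.428% in CM and 0.785% in TCM, a 1.84-fold difference with an interval of 1.07 to 3.21. More mesothelial cells in the tissue and a higher yield of them into droplets cannot be told apart. Whether the shallowest TCM members, which carried the difference described next, were intact mesothelial cells was not tested.

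The difference lay at low depth. From 500 to under 1000 UMIs there were 4 CM members (0.184% of droplets in that band) and 22 TCM members (1.35%), a 7.32-fold higher share in TCM with an interval of 2.49 to 29.2. From 1000 to under 2000 UMIs the order was opposite, with 7 CM members and 1 TCM member. At 2000 UMIs and over the shares were 0.315% in CM (13 droplets) and 0.324% in TCM (14 droplets), a ratio of 1.03 with an interval of 0.448 to 2.37. The core was 0.138% of CM and 0.169% of TCM droplets, a ratio of 1.22 (0.506 to 3.02). When every droplet was thinned to 1000 UMIs and the rule was then applied, 22 of 5816 CM and 17 of 6075 TCM droplets met it, which puts the TCM share at 0.740 of the CM share (0.369 to 1.46). Without the excluding genes the shares were 0.601 and 0.636%, a ratio of 1.06 (0.696 to 1.61). A difference was thus not detectable above 2000 UMIs at these numbers of droplets.

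**Figure D2:**
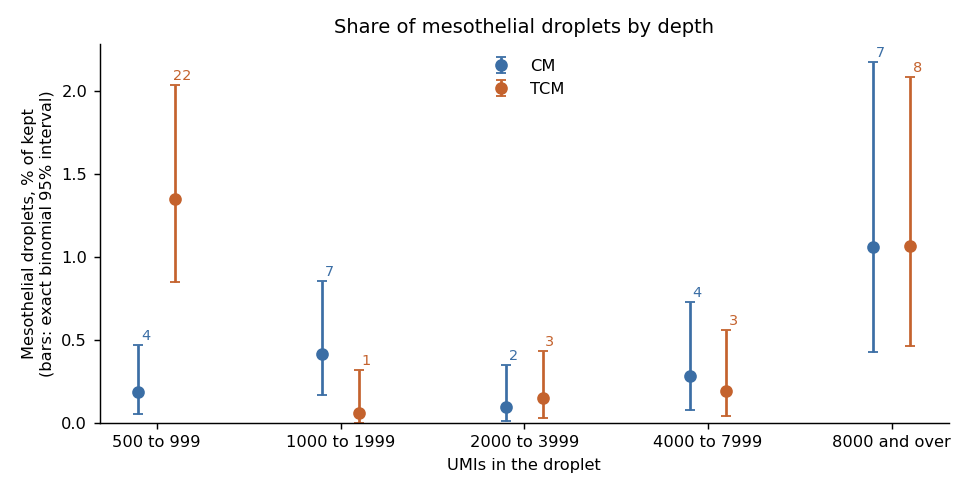
Mesothelial droplets as a percentage of kept droplets in 5 bands of depth, CM in blue and TCM in orange, with exact binomial 95% intervals as bars on each point and the number of members above them. Of the 5 bands, the intervals of the libraries are apart only in that under 1000 UMIs, where 22 TCM and 4 CM droplets lie.

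The shallow members of the libraries carried different RNA of other cell types. All 22 TCM members under 1000 UMIs held erythroid UMIs, from 4 to 19 with a median of 13, and all 4 CM members of that depth held 0. Hemoglobin transcripts mark red blood cells and their precursors. Of the other kept droplets under 1000 UMIs, 2.63% in CM and 4.53% in TCM reached 4 erythroid UMIs. Summed over the members under 2000 UMIs, erythroid markers stood at 8.70 CP100k in CM and 1836 in TCM, and at 0 and 0.803 in the core.

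Other lists also differed between the shallow members and the core. Club and ciliated cell markers, headed by the abundant secretoglobins, were at 566 CP100k in the CM and 1576 in the TCM members under 2000 UMIs, and at 81.3 and 90.7 in the core. Alveolar type II markers were at 261 and 737 under 2000 UMIs. Neutrophil markers were at 8.70 and 232. The CM members of that depth were higher in endothelial markers, at 453 against 130 CP100k, and in smooth muscle or pericyte markers, at 348 against 40.9. Kept droplets under 1000 UMIs that were not members held club and ciliated markers at 1070 CP100k in CM and 1523 in TCM. They held alveolar type II markers at 1325 and 1051, and neutrophil markers at 357 and 2068. Endothelial markers in them were at 365 and 381, and smooth muscle or pericyte markers at 126 and 99.4. Free RNA, read from droplets of at most 50 UMIs, held the club and ciliated list at 5530 CP100k in CM and 3727 in TCM but the erythroid list at only 109 and 33.9. It held the markers of the rule at 2.30 and 1.62 CP100k. The part of these admixtures in the excess of shallow TCM members was not tested.

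**Figure D3:**
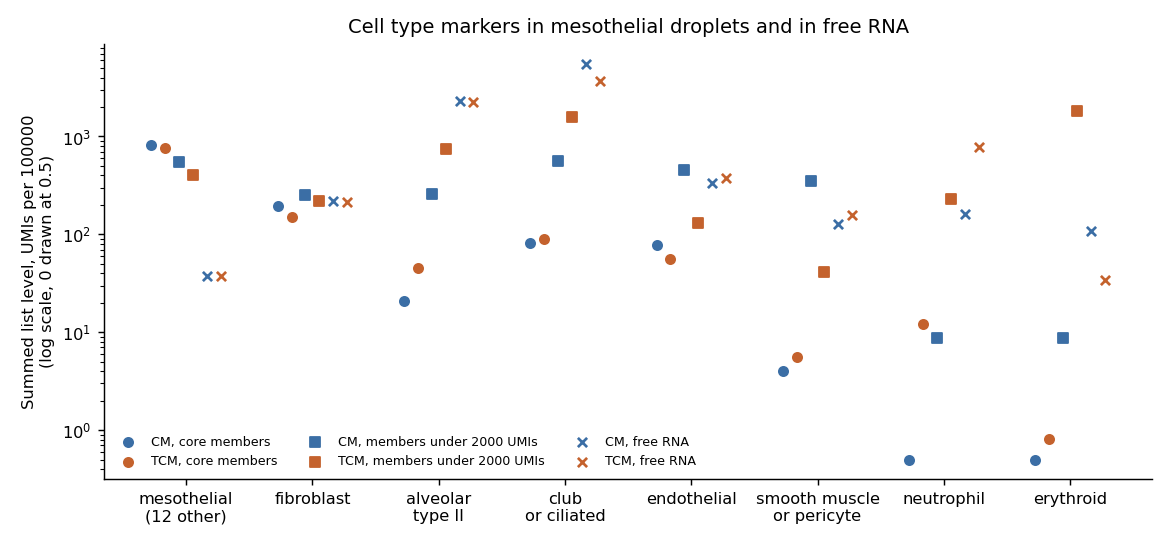
Summed levels of 8 marker lists, in UMIs per 100000 on a log scale with 0 drawn at 0.5, in core members (circles), in members under 2000 UMIs (squares) and in free RNA (crosses), CM in blue and TCM in orange. Erythroid markers reach 1836 in the shallow TCM members and 8.70 in the shallow CM members, while the core of each library is at 0 to 0.803.

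Levels of genes of mesothelial identity were read in both libraries. Among the genes that chose the members, described here without a test, Msln, the surface glycoprotein mesothelin, was at 344 CP100k in CM and 351 in TCM. Upk3b, a uroplakin, was at 292 and 257, Wt1, a transcription factor of the mesothelial lineage, at 17.1 and 9.02, and Lrrn4, a leucine-rich repeat membrane protein, at 38.8 and 65.9. Lrrn4 had a log2 ratio of 0.76. The rule selected the droplets on the sum of these genes, so their ratios cannot show whether mesothelial identity differed. Wt1 had 26 UMIs in CM and 13 in TCM. Its log2 ratio was -0.92 with an interval of -2.01 to 0.09, which includes 0. In core droplets Msln ran from 154 to 723 CP100k in CM with a median of 377 and from 63.8 to 573 in TCM with a median of 361, so the libraries overlapped over most of their range. Over the whole series, members exceeded all other kept droplets most in Lgals2 (820-fold by mean level), Sbsn (732-fold), Lrrn4 (646-fold) and Slurp1 (597-fold), which is a description since the rule chose the droplets. Slurp1, a small secreted protein, was at 164 CP100k in CM and 153 in TCM, but 53.4% of its TCM UMIs were in 1 droplet.

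Of the 12 other markers, 11 were measured and 10 passed the level filter used for counting changes (a mean level of at least 10 CP100k over the libraries and at least 30 UMIs). None of the 10 differed by 2-fold in either direction, against 2.58% of all genes higher and 4.78% lower. A count of 0 among so few genes is near those shares. The median log2 ratio (TCM over CM) was 0.08 over the 11. Calb2, which encodes calretinin, had 0 UMIs in both libraries. Krt19 was at 77.7 CP100k in CM and 88.1 in TCM, Nkain4 at 106 and 120, and Aldh1a2, a retinoic acid synthesising enzyme, at 99.4 and 110. Krt18 was the exception with 68 CM and 40 TCM UMIs, a log2 ratio of -0.69 (interval -1.29 to -0.11), and it turned to 0.54 when the excluding genes were dropped.

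The share of droplets with a UMI moved with depth. Msln was seen in 87.5% of CM and 86.5% of TCM members, Wt1 in 45.8 and 18.9%, and Upk3b in 87.5 and 75.7%. After thinning to 1000 UMIs, which leaves out 4 CM and 22 TCM members, Msln was seen in 17 of 20 CM and 14 of 15 TCM members, and Wt1 in 1 of each. Droplets with at least 2 Ptprc UMIs, which should lack these genes, numbered 1339 in CM (median 2621 UMIs) and 1944 in TCM (median 2215). They showed Msln in 0.0747% and 0% and Upk3b in 0.523% and 0%. None of them had 2 rule marker UMIs, for which the upper 95% limits of the share were 0.275% in CM and 0.190% in TCM.

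Across the transcriptome, 1589 genes passed the level filter, with the genes of the rule left out. The median of their log2 ratios (TCM over CM) was -0.02. At least 2-fold higher in TCM were 41 genes, 2.58% of those compared, and at least 2-fold lower were 76, or 4.78%. The interval of the ratio lay above 0 for 103 genes and below 0 for 136. With the core members alone the counts were 36 and 70. Thinning every member to 1000 UMIs, which leaves fewer counts and raises the median log2 ratio to 0.23, gave 19 higher and 10 lower. Thinning also leaves out 4 CM and 22 TCM members, whereas counting each member alike, with none left out, gave 113 higher and 195 lower.

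Of 10 complement genes 8 had a positive log2 ratio, as did 765 of the 1589 genes compared. The intervals of 4 lay above 0, against 103 of the 1589. C3 (ENSMUSG00000024164, chromosome 17, 57203970 to 57228136 on the minus strand of GRCm38), the central complement protein, had 404 UMIs in CM and 1006 in TCM, or 266 and 698 CP100k. In the core, single CM droplets ran from 135 to 491 CP100k with a median of 292, and single TCM droplets from 477 to 1054 with a median of 694. The sets overlapped by little, since 11 of the 13 TCM droplets were above the highest of the 11 CM droplets. The log2 ratio was 1.39 (interval 1.22 to 1.56) over all members and 1.42 (1.24 to 1.61) in the core, and it lay between 1.09 and 1.51 under 11 alternatives. The ratio was as large without the shallow droplets, and C3 in free RNA was at 7.46 and 10.2 CP100k.

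C4b, the complement component of the classical and lectin pathways, followed with 81 UMIs in CM and 192 in TCM. Its level in core droplets ran from 0 to 273 CP100k in CM (median 49.6) and from 30.7 to 527 in TCM (median 159), with 11 of 13 TCM droplets above the CM median but only 3 above the CM maximum. Its log2 ratio was 1.32 (0.94 to 1.71). Cfb, the protease of the alternative pathway, was at 66.5 CP100k in CM and 84.0 in TCM (log2 ratio 0.34, -0.06 to 0.73). Of 10 complement genes, all measured, 8 passed the filter, and 2 of these were at least 2-fold higher and 0 lower, against 2.58 and 4.78% of all genes. No interval of the list lay below 0. The list's median log2 ratio was 0.29 over all members, 0.27 in the core and 0.02 with each member counted alike, beside -0.02 for all genes.

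C3 was also read in other droplets. In 791 CM and 637 TCM fibroblast droplets it was at 36.4 and 36.2 CP100k (log2 ratio -0.01, -0.13 to 0.11). In 591 CM and 649 TCM alveolar type I droplets it was at 8.07 and 14.0, a log2 ratio of 0.79 (0.56 to 1.03). In all other kept droplets the log2 ratio was 0.36 (0.28 to 0.43). The median log2 ratio of the complement list was -0.06 in fibroblast and 0.32 in alveolar type I droplets. These values stand side by side without a test of the difference.

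**Figure D4:**
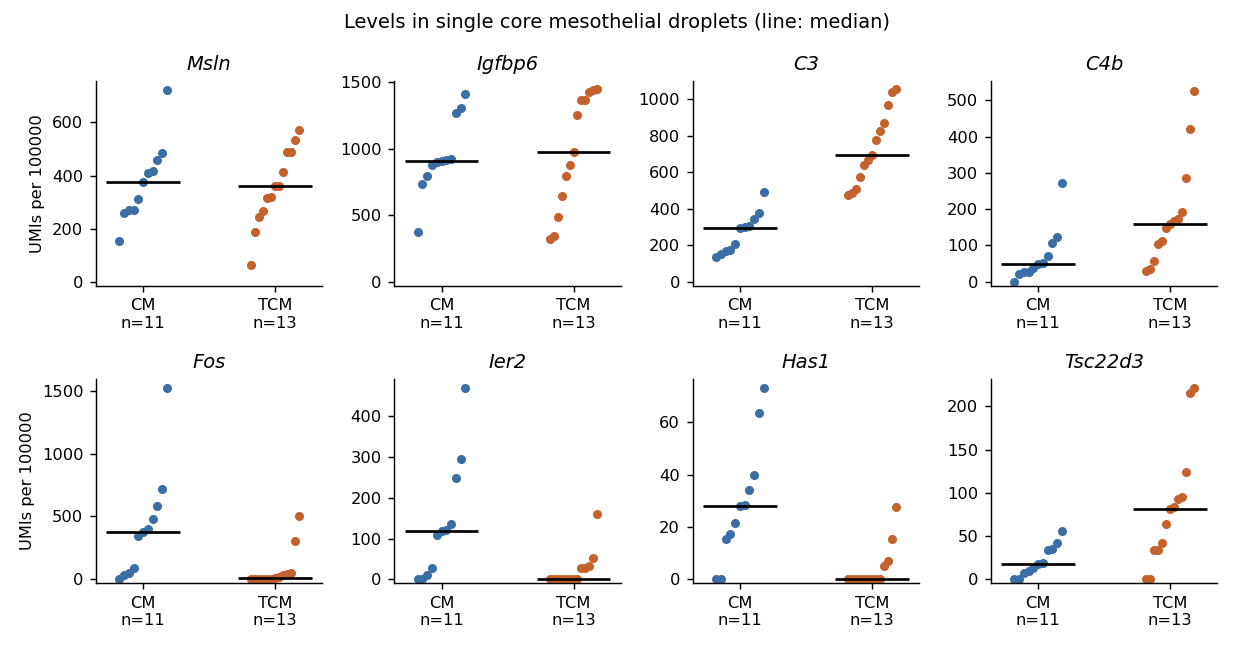
Levels of 8 genes in single core mesothelial droplets, in UMIs per 100000, for 11 CM (blue) and 13 TCM (orange) droplets, sorted within each library, with a line at the median. C3 medians are 292 and 694, Fos medians 373 and 11.4, and Msln medians 377 and 361.

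Immediate early genes, transcription factors and feedback regulators that cells switch on within minutes of a stimulus, were lower in TCM. Of 16 such genes 15 were measured and passed the filter. All 15 log2 ratios were negative, 9 of the 15 were at least 2-fold lower and 0 were 2-fold higher, against 4.78 and 2.58% of all genes. The intervals of 13 lay below 0, as did those of 136 of the 1589 genes compared. The list's median log2 ratio was -1.35 over all members and -1.69 in the core. It was -0.08 in fibroblast droplets, 0.02 in alveolar type I droplets and 0.10 in free RNA.

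Fos (ENSMUSG00000021250, chromosome 12, 85473890 to 85477273, plus strand), a subunit of the AP-1 transcription factor, had 559 UMIs in CM and 188 in TCM. Its core levels ran from 0 to 1518 CP100k in CM with a median of 373 and from 0 to 507 in TCM with a median of 11.4. The ranges overlapped, with 10 of 11 CM droplets above the TCM median and 3 above the TCM maximum. The log2 ratio was -1.5 (-1.74 to -1.26), although 52.1% of the TCM UMIs came from 1 droplet. Atf3, a stress-induced repressor, had 191 and 36 UMIs (log2 ratio -2.33, -2.89 to -1.81), with 77.8% of the TCM UMIs in 1 droplet. Ier2, a nuclear immediate early protein, had 177 and 51 (-1.72, -2.20 to -1.26). Egr1, a zinc finger factor, had 124 and 37 (-1.67, -2.24 to -1.13), and its core medians were 56.1 CP100k in CM and 0 in TCM. Alternatives kept all of these negative, with Fos between -2.15 and -1.0, and a mean in which each member counted alike gave a list median of -0.65.

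Heat-shock genes encode proteins that fold or refold other proteins. Of 11 measured genes 7 passed the filter, 2 were at least 2-fold lower and 0 higher, against 4.78 and 2.58% of all genes. The list's median log2 ratio was -0.59, beside -0.24 in fibroblast and -0.25 in alveolar type I droplets. It was -0.41 in all other kept droplets and -0.42 in free RNA, so lower levels were not particular to the mesothelial droplets. Hspa1a, an inducible HSP70 that has a near-identical copy, had 53 UMIs in CM and 8 in TCM (log2 ratio -2.65, -3.94 to -1.57). In CM 47.2% of its UMIs were in 1 droplet. Its log2 ratio was -0.50 in fibroblast, -0.63 in alveolar type I and -0.64 in all other kept droplets. Dnajb1, a co-chaperone of HSP70, had 34 and 14 (-1.20, -2.22 to -0.27). Hspb1, a small heat-shock protein, had 303 and 189 (-0.60, -0.87 to -0.34), and Hsp90ab1, the constitutive HSP90, 338 and 274 (-0.23, -0.46 to 0.01).

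Has1 (ENSMUSG00000003665, chromosome 17, 17843323 to 17855205, minus strand), the synthase that makes hyaluronan for the pleural surface, had 46 UMIs in 12 CM droplets and 7 UMIs in 6 TCM droplets. Core levels ran from 0 to 73.0 CP100k in CM with a median of 28.1 and from 0 to 27.8 in TCM with a median of 0, so that 6 of 11 CM droplets exceeded every TCM droplet. The log2 ratio was -2.64 (-4.03 to -1.48) over all members and -3.07 (-4.77 to -1.74) in the core, against 0.28 (0.02 to 0.54) in fibroblast droplets. It was the only 1 of the 12 fibrinolysis and lubrication genes to pass the filter, and 8 of them were measured, with a median log2 ratio of -0.59.

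The 250 bases before the RefSeq start of 4 genes of these lists, each with a motif match, are shown (GRCm38.p6), read 5′ to 3′ along the gene. They lie at chr12:85473640-85473889 on the plus strand for Fos and, on the minus strand, at chr7:28379229-28379478 for Zfp36, chr17:17855189-17855438 for Has1 and chr17:57228137-57228386 for C3. Capitals mark the half-site of the cAMP response element (TGACG) in Fos and Has1, the CArG box of serum response factor in Zfp36, and the C/EBP site (TTGCNNAA) in C3, each searched on both strands.
Fos: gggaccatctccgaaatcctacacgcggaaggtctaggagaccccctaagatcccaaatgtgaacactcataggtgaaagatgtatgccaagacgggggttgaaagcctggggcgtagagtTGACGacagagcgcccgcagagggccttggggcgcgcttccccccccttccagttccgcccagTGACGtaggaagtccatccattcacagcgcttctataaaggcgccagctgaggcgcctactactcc
Zfp36: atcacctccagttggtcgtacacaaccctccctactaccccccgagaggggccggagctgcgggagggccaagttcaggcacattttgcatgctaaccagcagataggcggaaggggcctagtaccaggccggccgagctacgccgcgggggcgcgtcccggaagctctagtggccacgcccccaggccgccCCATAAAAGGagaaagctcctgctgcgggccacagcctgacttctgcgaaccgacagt
Has1: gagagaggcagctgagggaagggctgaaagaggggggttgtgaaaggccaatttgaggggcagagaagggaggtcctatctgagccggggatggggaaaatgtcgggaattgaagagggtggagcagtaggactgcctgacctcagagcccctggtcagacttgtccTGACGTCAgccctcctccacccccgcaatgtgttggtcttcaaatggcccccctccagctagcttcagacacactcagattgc
C3: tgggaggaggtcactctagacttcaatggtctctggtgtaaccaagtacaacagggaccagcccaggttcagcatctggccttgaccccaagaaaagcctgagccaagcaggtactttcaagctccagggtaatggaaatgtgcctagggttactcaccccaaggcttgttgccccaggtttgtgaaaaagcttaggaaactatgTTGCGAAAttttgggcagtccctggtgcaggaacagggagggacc

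Fos held the half-site at -129 and -66 relative to its start, and Has1 held it on both strands at -83 and -80, where the matches overlap and form the full palindrome. In windows of 300 bases, from 250 before the start to 50 after it, the half-site was present in 8 of the 13 immediate early genes with an entry (61.5%) and in 5681 of 27025 promoters (21%). The CArG box was present in 1 of the 13, Zfp36 at -58, and in 1.57% of all promoters. Sequence outside these windows was not searched, so the count does not show that a gene lacks the site. C3 held its C/EBP site at -45, and 3 of the 5 complement genes with an entry held one, against 10.8% of all promoters. The NF-kB site was found in 0 of these 5 and in 8.18% of all promoters. These matches describe the letters of the windows and were not tied to binding of any factor.

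Of 9 NF-kB targets 3 passed the filter. Over all members 0 differed by 2-fold, against 2.58% of all genes higher and 4.78% lower. The intervals of 2 lay below 0 and of 0 above, against 136 and 103 of the 1589 genes compared. Nfkbia, the inhibitor that NF-kB induces against itself, was at 88.9 CP100k in CM and 46.5 in TCM (log2 ratio -0.93, -1.38 to -0.50), and Icam1, an adhesion molecule for leukocytes, at 33.6 and 19.4 (-0.79, -1.51 to -0.10). Nfkbiz, a nuclear modulator of NF-kB, was at 14.5 and 13.9. In the core the log2 ratio of Nfkbia was -1.33 (-1.85 to -0.83). Those of Icam1 and Nfkbiz in the core were -1.43 (-2.36 to -0.57) and -1.23 (-2.54 to -0.04). The list's median log2 ratio was -0.15 over all members and -1.28 in the core. It was -0.14 in fibroblast droplets, 0.03 in alveolar type I droplets and -0.0005 in all other kept droplets.

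Of 16 interferon and antigen presentation genes 13 were measured, with a median log2 ratio of -0.02. Of the 8 past the filter, 2 were at least 2-fold higher and 1 lower, against 2.58 and 4.78% of all genes. Isg15, a ubiquitin-like antiviral protein, had 17 UMIs in CM and 58 in TCM (1.85, 1.05 to 2.72), but 55.2% of the TCM UMIs came from 1 droplet and its ratio was 0.43 when each member counted alike. Bst2, tetherin, was at 56.6 and 133 CP100k (1.23, 0.85 to 1.61), with 42.9% of the TCM UMIs in 1 droplet, core medians of 59.6 and 71.7 and 6 of 13 TCM droplets above the CM maximum. Irf1, a transcription factor, was at 18.4 and 6.24 (-1.56, -2.83 to -0.44), and H2-D1, a class I antigen, at 105 and 99.2. In all other kept droplets Isg15 had a log2 ratio of 1.11 and Bst2 one of -0.23.

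Acute phase genes went both ways. Slpi, a secreted protease inhibitor, had 10 UMIs in CM and 50 in TCM (2.40, 1.40 to 3.54) and was seen in 4 of 11 CM and 7 of 13 TCM core droplets. Socs3, a feedback inhibitor of cytokine signaling, had 32 and 10 UMIs (-1.60, -2.79 to -0.54). Stat3, the factor that cytokines of this kind activate, had 15 and 27 (0.92, -0.04 to 1.94), and Il6st, their shared receptor subunit, 22 and 27. Of 10 genes 6 were measured and 4 passed the filter, 1 higher and 1 lower by 2-fold, with a median log2 ratio of 1.0. Of 13 chemokine and cytokine genes 3 passed the filter, 1 higher and 1 lower by 2-fold. Over all genes compared, 2.58% were higher and 4.78% lower by 2-fold. Csf1, a macrophage growth factor, had 61 and 40 UMIs (-0.53, -1.15 to 0.07). Cxcl1, a neutrophil attractant, had 8 and 23 (1.60), but 91.3% of the TCM UMIs were in 1 droplet and no TCM core droplet had any. Cxcl13 had 465 and 1, all of the CM UMIs in the 12127-UMI droplet described above, and the median log2 ratio of the 9 measured genes was -0.92.

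Tsc22d3, a glucocorticoid-induced leucine zipper protein, had one of the largest ratios, with 32 UMIs in CM and 109 in TCM (1.84, 1.26 to 2.46). Core droplets ran from 0 to 56.1 CP100k in CM (median 17.3) and from 0 to 221 in TCM (median 81.9), with 8 of 13 TCM droplets above the CM maximum. When each member counted alike the ratio was 0.13, as its UMIs lay in 13 TCM members, 11 of them in the core. The 9 glucocorticoid and metal response genes did not share this, with a median log2 ratio of -0.03. Of the 4 past the filter, 1 was higher and 1 lower by 2-fold, against 2.58 and 4.78% of all genes. Mt1, a metallothionein, was at 63.8 and 77.0 CP100k, with 54.1% of the TCM UMIs in 1 droplet, and in the core it had the opposite direction at 77.3 and 36.9 (log2 ratio -1.07, -1.61 to -0.54). Txnip, an inhibitor of glucose uptake, was at 36.2 and 35.4, and Cdkn1a, a cell cycle inhibitor, at 14.5 and 6.24 (-1.21, -2.52 to -0.04).

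Lipid genes were low, with 3 of 15 past the filter. Lpl, lipoprotein lipase, had 36 UMIs in CM and 87 in TCM (1.35, 0.77 to 1.95), core medians of 25.4 and 61.4 CP100k, and a ratio of -0.13 in fibroblast droplets. Scd2, a stearoyl desaturase, had 16 and 28 (0.88, -0.05 to 1.87). Fabp5, a fatty acid binding protein, had 31 and 3, with 67.7% of the CM UMIs in 1 droplet. The median log2 ratio of the 13 measured genes was 0.49.

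All 14 matrix genes were measured, with a median log2 ratio of 0.28 over all members and 0.21 in the core. The intervals of 4 lay above 0 and of 2 below, against 103 and 136 of the 1589 genes compared. Of the 13 past the filter, 0 were higher and 1 was lower by 2-fold, against 2.58 and 4.78% of all genes. Timp2, a metalloproteinase inhibitor, was at 250 and 246 CP100k. Col1a2, a fibrillar collagen chain, was at 30.3 and 55.5 (0.87, 0.33 to 1.43), with 36.2% of the TCM UMIs in 1 droplet and a core ratio of 0.48 (-0.17 to 1.15). Fn1, fibronectin, was the 1 lower gene with 88 and 11 UMIs, of which 86 in CM were in the 12127-UMI droplet. Col4a1, a basement membrane collagen, had 13 and 24 UMIs (0.96, -0.07 to 2.06).

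Of 14 mesenchymal transition genes 9 were measured, with a median log2 ratio of -0.02. Of the 4 past the filter, 0 were higher and 2 lower by 2-fold, against 2.58 and 4.78% of all genes. Vim, vimentin, was at 313 and 239 CP100k (-0.39, -0.59 to -0.19). Ccn1, a matricellular protein, was at 59.9 and 17.3 (-1.79, -2.49 to -1.14), and Tgm2, a crosslinking transglutaminase, at 20.4 and 9.71 (-1.07, -2.10 to -0.12). For Ccn1, 1 droplet held 50.5% of the CM UMIs and 1 held 52% of the TCM UMIs. In the core the log2 ratio of Tgm2 was -0.59 (-1.90 to 0.66), which includes 0. In fibroblast and all other kept droplets the log2 ratios were -0.24 and -0.41 for Ccn1 and 0.52 and 0.59 for Tgm2. Tgfb2 had 16 and 15 UMIs. Junction and surface genes had 10 of 14 measured, 7 past the filter and 0 past 2-fold, beside the same shares of all genes, with a median of 0.20. Among them Cav1, caveolin, was at 127 and 152 CP100k, Pdpn, podoplanin, at 21.7 and 27.1, Tjp1, a tight junction scaffold, at 9.87 and 11.8, and F11r, a junctional adhesion molecule, at 27.0 and 45.1 (0.74, 0.16 to 1.34).

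Secreted binding proteins and retinoid genes included the most abundant transcripts described here. Igfbp6, a binding protein of insulin-like growth factors, was at 794 CP100k in CM and 929 in TCM (0.23, 0.11 to 0.34), a difference that turned to -0.10 without the excluding genes. Igfbp7, which belongs to the same wider family, was at 400 and 241 (-0.73, -0.93 to -0.54). Its core levels ran from 256 to 431 in CM and from 93.0 to 306 in TCM, with 0 of 13 TCM droplets above the CM median. Igfbp4 had 91 and 10 UMIs, with 84.6% of the CM UMIs in the 12127-UMI droplet, and Pdgfa, a platelet-derived growth factor, 22 and 13. Of that list 9 of 14 genes were measured, with a median of -0.23. Of the 7 past the filter, 0 were higher and 1 was lower by 2-fold, against 2.58 and 4.78% of all genes.

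Rarres2, the chemoattractant chemerin, was at 968 and 1107 CP100k (0.19, 0.09 to 0.30) and was present in 22 of 24 CM and all 37 TCM members. In the core its log2 ratio was 0.07 with an interval of -0.04 to 0.17, which includes 0. Rbp4, a retinol carrier, had 9 and 22 UMIs (1.37, 0.19 to 2.67), and Aldh1a1, a retinal dehydrogenase, 24 and 29. Of 14 retinoid genes 5 were measured and passed the filter, with a median of 0.19. By 2-fold 1 was higher and 0 were lower, against 2.58 and 4.78% of all genes. Of 10 proliferation genes 2 were measured and 0 passed the filter, and Ccnd1, a G1 cyclin, had 14 UMIs in each library.

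By size alone, and leaving out genes of which 1 droplet held 25% or more of the UMIs in the higher library, the largest ratios began with hemoglobin genes of the shallow TCM members. Hbb-bs had 0 UMIs in CM and 154 in 23 TCM members, 54.1-fold higher with the 0 replaced by 3 counts. The interval of its log2 ratio began at 5.44. Hba-a2 had 0 and 43 (15.1-fold with the same replacement, log2 interval from 3.56), and Hba-a1 had 1 and 60 (log2 ratio 5.98, 3.45 to 11.31). No core droplet held any of the 3. After these and Tsc22d3 came Emb, an adhesion protein and partner of lactate transporters, with 10 and 31 UMIs (1.71, 0.64 to 2.90). Ltbp4, which binds latent TGF-beta in elastic fibers, had 38 and 111 (1.62, 1.08 to 2.19), with 9 of 13 TCM core droplets above the CM maximum. Slc16a1, a lactate transporter, had 9 and 25 (1.55), Fkbp4, a co-chaperone of steroid receptors, 11 and 28 (1.42), and Cdo1, a cysteine dioxygenase, 12 and 30 (1.40), followed by C3.

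The smallest ratios began with Ramp2, a co-receptor for adrenomedullin that endothelial cells express strongly, with 40 UMIs in CM and 6 in TCM (-2.66, -4.19 to -1.41). Endothelial markers were at 453 CP100k in the shallow CM members and 130 in the shallow TCM ones, and the part of that in Ramp2 was not tested. In the core Ramp2 was in 4 of 11 CM and 1 of 13 TCM droplets. Itm2a, an integral membrane protein, had 65 and 19 UMIs (-1.70, -2.52 to -0.94), and 0 of 13 TCM core droplets were above the CM median. Hspb8 and Bag3, partners in chaperone-assisted autophagy, had 27 and 9 (-1.51) and 36 and 14 UMIs (-1.29). Pnkd (27 and 9), Arhgap18 (23 and 8), Isyna1 (45 and 16), Arid5b (23 and 9), Hist1h2bc (23 and 9) and Brd2 (33 and 13) completed the 10, with log2 ratios from -1.51 to -1.27. Calcb, a calcitonin gene-related peptide and 1 of the 10 genes with the highest fold over other droplets, had 33 and 11 UMIs (-1.51, -2.64 to -0.49), with 51.5% of the CM UMIs in 1 droplet.

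**Figure D5:**
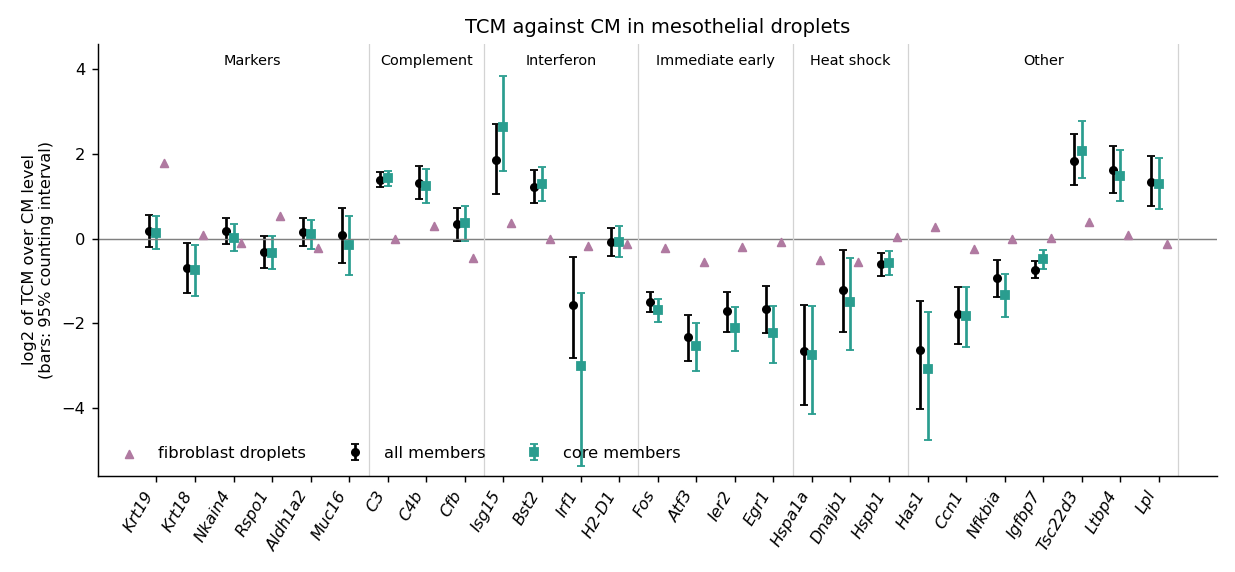
Log2 ratio of TCM over CM for 27 genes in all mesothelial droplets (black circles) and core members (green squares), with 95% counting intervals, and in fibroblast droplets (purple triangles, no interval drawn). Complement genes C3 and C4b lie at 1.39 and 1.32, and Fos, Atf3, Ier2 and Egr1 lie between -2.33 and -1.5, while fibroblast droplets stay between -0.54 and 0.31 for these 6 genes.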

How the data were processed

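The authors prepared 5-prime droplet libraries of whole lung, mapped the reads with Cell Ranger 4 (version from the file headers) to mm10 (GRCm38.p6) and deposited matrices of raw UMI counts for each gene in each barcode, not normalized. The counts were analysed as deposited. Library totals were 31944151 UMIs for CM and 36648719 for TCM. Droplets were kept with at least 500 UMIs, at least 200 genes and at most 10% mitochondrial UMIs. Between the libraries, 93 barcodes of kept droplets were shared, and 0 barcodes of members. Doublets were scored with Scrublet in scanpy 1.11.5. With its automatic threshold it called 0.0250% of kept CM droplets and 0% of kept TCM droplets, so the caller had not worked, no droplet was removed, and removal of those in the top 6% by score was an alternative.

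UMIs were summed over the members of a library and divided by all their UMIs (CP100k). For a ratio, a sum of 0 was replaced by 3 counts, and genes with no more than 3 counts in each library got no ratio. Intervals were exact binomial for shares and conditional binomial for ratios, and both kinds were tested on simulated data. A gene of a list counted as measured with at least 4 UMIs in 1 library. Fibroblast droplets had at least 3 UMIs of Col1a1, Col1a2, Col3a1 and Pdgfra and no UMI of the rule's or the excluding genes, and alveolar type I droplets at least 3 of Ager, Hopx and Rtkn2 and no UMI of the rule's genes, Ptprc or Cdh5. Coordinates came from GENCODE M21 (GRCm38), and 32235 of 32286 features matched it. Promoters came from RefSeq, and genes without an entry were left out.

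The genes named were those of the rule, the 12 other markers, the 10 largest and 10 smallest ratios with no droplet holding 25% of the UMIs in the higher library, up to 4 genes of each list (1 of them is not reported here), and the 10 genes with the highest fold over other droplets. Members and lists were chosen with earlier results of these data known. Alternatives changed the marker minimum, the excluding genes, doublets, mitochondrial limit, other markers, depth, level filter, weighting and free RNA. Each group was 1 library, so no test across groups was made.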

Additional observations from a re-analysis of the deposited data

Results flagged for a closer look

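Marker UMIs were also found below the depth filter, in droplets that no comparison above uses. Of the droplets with 300 to under 500 UMIs, at most 10% mitochondrial UMIs and no UMI of Ptprc, Cdh5 or Epcam, 1 of 1267 in CM (0.0789%, exact binomial interval 0.00200 to 0.439%) and 10 of 1056 in TCM (0.947%, 0.455 to 1.73%) held at least 2 UMIs of Msln, Upk3b, Wt1 and Lrrn4. It is listed as a signal above the control level in data outside the main measurement. The difference was not tested across mice.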

How the results depend on the processing

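The log2 ratio of the shares was 0.68, stayed within its counting interval under 9 of 10 alternatives (from 0.04 to 0.88) and was -0.43 when the rule was applied after thinning to 1000 UMIs. The median log2 ratio over genes moved from -0.02 to -0.13 without the excluding genes and to 0.23 after thinning. The counts of genes past 2-fold, 41 higher and 76 lower, became 113 and 195 with each member counted alike, 19 and 10 after thinning, 16 and 29 with a mean level of at least 20 CP100k and 60 UMIs, and 866 and 875 with no level filter other than 4 UMIs in 1 library. The list median of immediate early genes was -0.65 with each member counted alike and lay between -1.69 and -1.01 under the others. That of complement genes was 0.02 with each member counted alike and lay between 0.07 and 0.50 otherwise. Of the 87 named genes with a ratio, 24 whose interval included 0 turned sign under at least 1 alternative. Among those whose interval lay off 0, signs turned for 9, namely Cxcl1 with at least 3 rule marker UMIs (-1.28) and with at least 2 other markers (-1.86), for Krt18 (0.54), Rarres2 (-0.21) and Igfbp6 (-0.10) without the excluding genes, for Pnkd (0.22), F11r (-0.049), Fn1 (0.20), Cdkn1a (0.11) and Igfbp6 (-0.26) with each member counted alike, and for Brd2 (0.42) after thinning. The causes were not tested. The restrictions to members of at least 2000 UMIs and to core members were chosen after seeing the data. No paired analysis was possible because each group held 1 library. With 24 and 37 droplets, 1 droplet can hold most UMIs of a gene, and shares of this size leave ratios from 0.931 to 2.79 within counting error.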
